A study of Mus musculus with 26 samples.

Results

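Complement genes were followed through sorted mouse microglia and cortical nuclei after maternal immune activation (MIA). The 8 genes were C1qa, C1qb, C1qc, C3, C3ar1, C5ar1, Itgam and Itgb2, taken by symbol from the 31053 genes listed in each microglia library. All 8 were also among the 30406 genes listed in every library of the series. They were listed by their place in the complement system, and no measured value entered the rule.

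Pregnant C57Bl/6N mice were injected intraperitoneally at E12.5 with poly(I:C), which mimics viral double-stranded RNA, or with saline, and no group was left uninjected. Microglia, all of wild-type genotype, were sorted from somatosensory (S1) cortex without meninges as Cd11b+, Cx3cr1+ and Cd45low cells, giving 3 saline and 3 MIA libraries at E13, 3 and 3 at E15, and 4 saline and 2 MIA libraries at P14. E13 and E15 are the names in the labels, rounded down from the embryonic days that the paper gives. The sexes were mixed in the embryonic libraries. At P14 the saline libraries were replicates 1 and 2, of mixed sex, and a female and a male library that both carry the number 3, and both MIA libraries were of mixed sex. A further 8 libraries held nuclei from frozen E15 S1 cortex of male embryos, wild type or Csf1r-/-, with 2 libraries for each genotype and treatment. Treatments were compared to follow the response to MIA, and genotypes because microglia depend on Csf1r. The Csf1r-/- line lacks the receptor in every cell of the animal and not in microglia alone, and was kept on the same C57Bl/6N background. Cd11b is the protein made from Itgam, so Itgam was part of the sort.

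C1q is the recognition molecule of the classical complement pathway and is assembled from A, B and C chains encoded by C1qa, C1qb and C1qc. Bound C1q starts a cascade that cleaves C3, whose fragments either coat a surface for uptake or, as C3a, act on the receptor C3ar1, while C5a further along the cascade acts on C5ar1. The product of Itgam pairs with that of Itgb2 to form complement receptor 3 (CR3), which binds coated surfaces, and in the developing brain microglia are the main source of C1q and are known to remove synapses through C1q, C3 and CR3.

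The C1q genes lie side by side on the minus strand of chromosome 4 (GRCm38), with C1qb at chr4:136880129-136886187, C1qc at chr4:136889804-136893065 and C1qa at chr4:136895917-136898803. They span 18675 bp, with 3616 bp between C1qb and C1qc and 2851 bp between C1qc and C1qa. C3 lies at chr17:57203970-57228136 on the minus strand, C3ar1 at chr6:122847138-122856161 on the minus strand and C5ar1 at chr7:16246743-16259540 on the minus strand. Itgam (chr7:128062640-128118491) and Itgb2 (chr10:77530252-77565708) are on the plus strand. All are annotated as protein coding genes.

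The sequences before the transcription starts of 2 C1q genes and of Itgam are shown because these genes rose between E13 and E15 in both treatments. C1qa did too but had no window, and C3, called higher in saline alone, is not shown. The sequences are RefSeq promoter windows of GRCm38.p6, written 5′ to 3′ on the strand of the gene. Positions count back from the RefSeq start, which can differ from the end of the gene span given above. For C1qc, C3ar1 and C5ar1 the RefSeq start lies inside that span, so the stretch of C1qc shown is the part of its window outside the span. Capitals mark GAGGAA or its reverse complement, the letters of a PU.1-type motif, PU.1 being a transcription factor that myeloid cells depend on. The C1qb window is chr4:136886201-136886450, the C1qc stretch is chr4:136893066-136893164, from 250 to 152 bases before the start, and the Itgam window is chr7:128062390-128062639.
C1qb: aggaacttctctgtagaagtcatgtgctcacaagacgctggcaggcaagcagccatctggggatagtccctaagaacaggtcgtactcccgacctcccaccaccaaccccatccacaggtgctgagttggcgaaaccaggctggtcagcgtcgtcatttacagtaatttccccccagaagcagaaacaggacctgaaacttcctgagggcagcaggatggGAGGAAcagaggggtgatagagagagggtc
C1qc: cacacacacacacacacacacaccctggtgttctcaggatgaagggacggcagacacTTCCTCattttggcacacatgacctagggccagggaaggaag
Itgam: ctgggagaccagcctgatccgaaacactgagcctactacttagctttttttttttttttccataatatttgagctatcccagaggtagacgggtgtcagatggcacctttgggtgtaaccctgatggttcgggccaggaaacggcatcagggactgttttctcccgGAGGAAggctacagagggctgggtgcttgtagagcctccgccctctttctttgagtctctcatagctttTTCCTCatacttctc

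Windows were found for 6 of the 8 genes, the others being C1qa and Itgb2. The GAGGAA letters lay 30 to 25 bases before the start of C1qb, 193 to 188 before that of C1qc on the other strand, and both 84 to 79 and, on the other strand, 15 to 10 before that of Itgam, and C3, C3ar1 and C5ar1 had none in their windows. Of 32851 promoter windows of 27025 genes, 23.3% hold GAGGAA on either strand. The Maf half-site TGCTGA, in 16.1% of all windows, was found in C1qb, C3, C3ar1 and C5ar1, in the last of these 17 to 12 bases before the RefSeq start and so inside the annotated gene span, and the AP-1 motif TGANTCA, in 6.75%, in C3ar1 alone, 22 to 16 bases before its start. The interferon-stimulated response element, in 2.98% of windows, was in none of the 6. These matches describe letters and not bound sites.

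The microglia libraries held 280 to 6375 kept cells at E13, 1471 to 5803 at E15 and 3809 to 5822 at P14, with 6160925 to 105751888 UMIs, 16590964 to 77548598 and 22187944 to 32527293. Both smallest libraries were E13 MIA replicates 1 and 2, with 280 and 375 cells. Of the cell barcodes of E13 MIA replicate 2, 258 of 375 (68.8%) were also found in the P14 saline female library, and of those of E13 MIA replicate 1, 133 of 280 (47.5%) were also in P14 MIA replicate 1, whereas the median over the 325 pairs of libraries was 0.163% of the smaller library. The levels, the fits and the C1q sum and shares were therefore also computed without the lesser copies, those with fewer UMIs than another library's copy. This took only 1 and 4 cells from E13 MIA replicates 1 and 2. It took 238 (16.2%) from E15 MIA replicate 3, and 304 (6.45%) and 282 (5.77%) from the P14 saline female and male libraries. The 12 microglia markers summed to between 10438 and 11055 CPM at E13, 14474 and 18920 at E15, and 35737 and 40327 at P14, and the 8 markers of dividing cells to between 1779 and 2643 at E13, 585 and 2115 at E15, and 27.2 and 265 at P14. Levels are given in CPM, a gene's UMIs scaled to a common total of UMIs in the kept cells of a library, on which scale the C1qa level of 3034 CPM in E13 saline replicate 1 is 0.303% of its UMIs. They come from 3′ tags, so they are not divided by gene length.

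The C1q genes took the most UMIs of the 8 and were higher at each later stage, while MIA and saline libraries overlapped at both embryonic stages. C1qa stood at 3034, 3089 and 2975 CPM in E13 saline replicates 1 to 3 and at 2902, 2887 and 3318 in E13 MIA replicates 1 to 3. At E15 it stood at 4431, 5502 and 6044 CPM in saline and 5121, 5800 and 4799 in MIA. At P14 it stood at 9511, 8677, 8914 and 8736 CPM in saline replicates 1, 2, 3 female and 3 male, and at 9663 and 10023 in MIA replicates 1 and 2. Every E15 library lay above every E13 library and every P14 library above every E15 library for C1qa. C1qb, which encodes the B chain, stood at 3974, 4288 and 3935 CPM in E13 saline and 4012, 3926 and 4661 in E13 MIA. At E15 C1qb stood at 5943, 6821 and 6833 CPM in saline and 7037, 6888 and 5587 in MIA, and at P14 at 9505, 8581, 8079 and 7864 in saline and 9682 and 10012 in MIA. The 3 stages of C1qb did not overlap, and the smallest gap was between E15 MIA replicate 1 and the P14 saline male library. C1qc, which encodes the C chain, ranged from 2834 to 2974 CPM in E13 saline and from 2857 to 3253 in E13 MIA, from 4611 to 5347 in E15 saline and from 4077 to 5708 in E15 MIA, and from 6585 to 8187 in P14 saline, with 7977 and 8474 in P14 MIA.

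**Figure D1:**
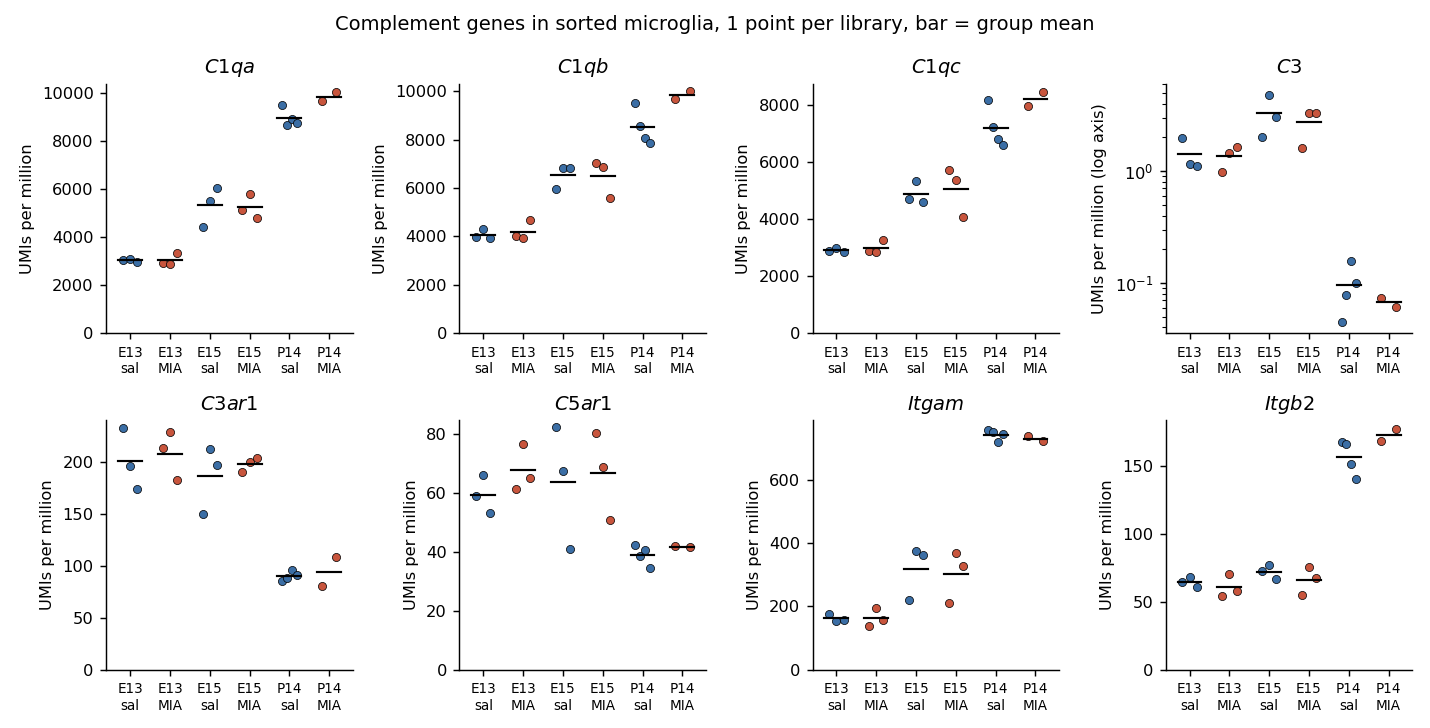
Level of each gene in each of the 18 microglia libraries by stage, in CPM, with blue points for saline, red points for MIA and bars for group means; the C3 axis is logarithmic. The C1q genes, Itgam and Itgb2 are highest at P14 and C3, C3ar1 and C5ar1 lowest at P14, and the saline and MIA points of a stage lie close together.

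Added together, the C1q genes took 1.01% ± 0.0598 (SD, n = 6) of all UMIs at E13, 1.68% ± 0.157 at E15 and 2.58% ± 0.220 at P14, with treatments pooled. The rise from E13 to E15 was 0.665 percentage points and that from E15 to P14 was 0.899, each with p = 0.0022 by a two-sided exact permutation test over libraries, which is the smallest this test can give (adjusted p = 0.0087 over 20 tests). The test takes libraries as independent, although same-numbered libraries deviated together at E15, and counted as 3 sets of same-numbered libraries a stage these steps and those of the shares could not go below 0.1. Within the sum the shares of the chains changed. In the P14 MIA libraries C1qa and C1qb stood about level, at 35.4% and 35.4% in replicate 1 and 35.2% and 35.1% in replicate 2. C1qb made up 40.8% ± 0.559 of C1q UMIs at E13, 38.9% ± 0.504 at E15 and 34.7% ± 0.638 at P14, lower at each step (exact permutation p = 0.0022 each, adjusted p = 0.0087, n = 6 and 6). C1qa made up 30.01% ± 0.461, 31.5% ± 2.24 and 36.0% ± 1.22, so that the step from E13 to E15 did not pass (exact permutation p = 0.136, adjusted p = 0.341) and that from E15 to P14 did (exact permutation p = 0.0022, adjusted p = 0.0087). C1qc kept between 29.2% and 29.6% of C1q UMIs as stage means, with exact permutation p = 0.628 and p = 0.708 for the steps (n = 6 and 6). The C1qa share was most spread at E15, at 29.4%, 31.1% and 34.6% in saline replicates 1 to 3 and 28.7%, 32.1% and 33.2% in MIA replicates 1 to 3. In both treatments the C1qa share at E15 was lowest in replicate 1 and highest in replicate 3, while the C1qc share was highest in replicate 1, at 31.1% in saline and 31.9% in MIA, and lowest in replicate 3, at 26.4% and 28.2%.

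**Figure D2:**
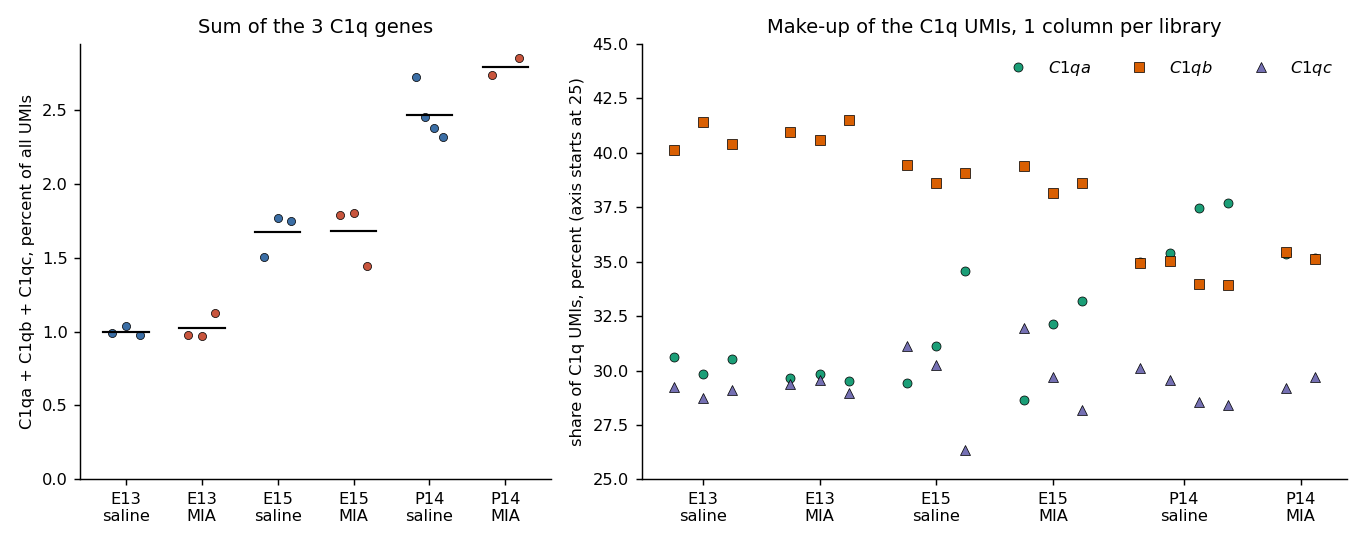
C1q sum as a percent of all UMIs (left, axis from 0), 1 point per library, blue for saline and red for MIA. The right panel gives the share of each chain in C1q UMIs (percent, axis from 25), 1 column per library, with colours and shapes marking the genes. The sum rises from about 1.01% to 2.58% and the C1qb share falls from 40.8% to 34.7% while that of C1qa rises to 36.0%.

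Between stages the C1q genes were tested over all genes with edgeR's quasi-likelihood test, saline libraries alone and MIA libraries alone, where each fold change is a difference of log2 levels. P-values here measure the spread between libraries. From E13 to E15, C1qa rose by 0.78 ± 0.12 (SE) in saline (edgeR adjusted p = 6.2e-04), C1qb by 0.65 ± 0.13 (adjusted p = 0.0029) and C1qc by 0.72 ± 0.14 (adjusted p = 0.0029). In MIA libraries C1qa rose by 0.76, C1qb by 0.61 and C1qc by 0.73 (adjusted p = 5.6e-04, 0.0036 and 0.0021). These 3 genes, C3 and Itgam were called higher in saline, 5 of 8 against 10.7% of the 15121 genes tested, and without C3 in MIA, 4 of 8 against 16.4%, and none of the 8 was called lower, where 9.86% and 14% of genes were. From E15 to P14 C1qa rose again, by 0.57 ± 0.11 in saline (adjusted p = 6.7e-04) and 0.76 ± 0.13 in MIA (adjusted p = 4.0e-04).

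For C1qb and C1qc the step from E15 to P14 was smaller and depended on the setting. C1qb had a log2 fold change of 0.20 ± 0.12 in saline (edgeR adjusted p = 0.175) although its levels did not overlap, and rose by 0.45 in MIA (adjusted p = 0.020). With library totals in place of size factors, a setting chosen after the data were seen, C1qb had 0.38 in saline (adjusted p = 0.0057), and the median of all genes moved from 0.03 to 0.21. C1qc rose by 0.38 ± 0.13 in saline (adjusted p = 0.027) and 0.55 in MIA (adjusted p = 0.011). With clusters led by other cell types left out, C1qc had 0.31 (adjusted p = 0.133) and 0.36 (adjusted p = 0.161) and C1qb had 0.26 in MIA (adjusted p = 0.267), so these calls were lost, whereas C1qa kept its call at 0.50 and 0.58 (adjusted p = 0.0047 and 0.0068). C1qc in saline also lost its call without E15 saline replicate 3 (adjusted p = 0.062) or P14 saline replicate 1 (adjusted p = 0.088), C1qc in MIA without P14 MIA replicate 2 (adjusted p = 0.082), and C1qb in MIA without P14 MIA replicate 1 (adjusted p = 0.080) or 2 (adjusted p = 0.112). In the 4 stage comparisons, 20.6% (saline, E15 against E13), 30.3% (MIA, E15 against E13), 48% (saline, P14 against E15) and 38.1% (MIA, P14 against E15) of the genes tested were called in either direction. Summed microglia markers were higher at E15 than at E13 and higher again at P14, and those of dividing cells, at 2194 to 2643 CPM in E13 saline and 1779 to 2427 in E13 MIA, stood at 695 to 2115 in E15 saline and 585 to 907 in E15 MIA and were lowest at P14. The part of either in these changes, or in those of Itgam, was not tested. In summed libraries fewer cells of a type and less RNA per cell cannot be told apart.

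C3, the protein that the cascade cleaves, was rare throughout and nearly absent at P14. It stood at 1.97, 1.15 and 1.12 CPM in E13 saline and 0.98, 1.46 and 1.65 in E13 MIA, and at 2.01, 4.79 and 3.07 in E15 saline and 1.60, 3.34 and 3.32 in E15 MIA. At P14 only 1, 2, 4 and 3 UMIs of C3 were counted in saline replicates 1, 2, 3 female and 3 male, and 2 and 2 in MIA replicates 1 and 2. Every P14 library lay below every embryonic library. Summed over libraries, 726 C3 UMIs at E15 against 14 at P14 made a ratio of levels of 31.7 (95% counting interval 18.8 to 58.3), and without lesser copies of shared barcodes 718 against 8 made 53.8 (27.2 to 125). Such intervals cover counting error only. In the fit C3 fell by 5.21 ± 0.45 on the log2 scale from E15 to P14 in saline (edgeR adjusted p = 3.3e-07) and by 5.42 ± 0.62 in MIA (adjusted p = 1.1e-05). From E13 to E15 C3 rose by 1.2 ± 0.38 in saline (adjusted p = 0.035) and had a log2 fold change of 0.92 ± 0.40 in MIA (adjusted p = 0.088). That rise in saline rested on single libraries, with adjusted p = 0.119 or 0.118 without E13 saline replicate 2 or 3, and 0.178 or 0.066 without E15 saline replicate 2 or 3, and adjusted p = 0.0506 with no filter on low counts. In MIA C3 passed without E15 MIA replicate 1 (adjusted p = 0.028) and with other cell types left out (adjusted p = 0.045).

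C3ar1, the receptor for C3a, was not called between the embryonic stages and fell by P14. It stood at 233, 196 and 174 CPM in E13 saline and 214, 229 and 183 in E13 MIA, at 150.0, 213 and 198 in E15 saline and 191, 200.2 and 204 in E15 MIA, and at 85.6, 88.7, 96.4 and 90.9 in P14 saline and 80.3 and 109 in P14 MIA. The E13 and E15 libraries overlapped, and all 6 P14 libraries lay below all 12 embryonic ones. From E13 to E15 C3ar1 had log2 fold changes of -0.14 ± 0.14 in saline and -0.09 ± 0.14 in MIA (edgeR adjusted p = 0.502 and 0.663). From E15 to P14 it fell by 1.23 ± 0.13 in saline (adjusted p = 2.0e-06) and by 1.22 ± 0.16 in MIA (adjusted p = 3.5e-05). The summed markers of border-associated macrophages stood at 520 to 746 CPM in E15 saline and 278 to 356 in P14 saline (405 to 880 and 287 to 299 in MIA), and those of Spp1-high cells at 416 to 743 and 66.1 to 112 (409 to 2047 and 59.7 to 90.6). With border-associated macrophage-like cells and other cell types left out, C3ar1 fell by 1.23 in saline (edgeR adjusted p = 1.6e-06) and by 1.34 in MIA (adjusted p = 1.3e-05). Spp1-high cells stayed in these sums, and their part was not tested. C5ar1, the receptor for C5a, was less abundant and more variable, at 58.7, 66.1 and 53.1 CPM in E13 saline and 61.2, 76.4 and 65.0 in E13 MIA, and at 82.1, 67.4 and 41.0 in E15 saline and 80.3, 68.6 and 50.7 in E15 MIA. At E15 replicate 1 was highest and replicate 3 lowest in C5ar1 in both treatments. At P14 C5ar1 stood at 42.3, 38.5, 40.5 and 34.3 CPM in saline and 41.8 and 41.6 in MIA, so that E15 saline replicate 3 lay within the P14 range. C5ar1 had log2 fold changes of 0.09 ± 0.22 and -0.03 ± 0.22 from E13 to E15 (adjusted p = 0.813 and 0.927), and then fell by 0.90 ± 0.20 in saline (adjusted p = 0.0017) and by 0.83 ± 0.25 in MIA (adjusted p = 0.016). The C5ar1 call in MIA was lost without E15 MIA replicate 1 (adjusted p = 0.055) or either P14 MIA library (adjusted p = 0.084 and 0.099).

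Itgam, which encodes the alpha chain of CR3, rose at both steps. It stood at 175, 154 and 158 CPM in E13 saline and 137, 194 and 157 in E13 MIA, at 221, 374 and 363 in E15 saline and 209, 370.0 and 328 in E15 MIA, and at 757, 751, 719 and 745 in P14 saline and 739 and 723 in P14 MIA. The stages did not overlap, and replicate 1 of each treatment was the lowest E15 library. From E13 to E15 Itgam rose by 0.94 ± 0.19 in saline (edgeR adjusted p = 0.0040) and 0.88 ± 0.19 in MIA (adjusted p = 0.0046), and from E15 to P14 by 1.04 ± 0.18 (adjusted p = 2.7e-04) and 1.12 ± 0.21 (adjusted p = 7.4e-04). Itgb2, the beta chain of CR3 and of other leukocyte integrins, was not called between the embryonic stages, unlike Itgam. It stood at 64.8, 68.6 and 61.1 CPM in E13 saline and 54.5, 70.4 and 57.8 in E13 MIA, at 72.5, 77.0 and 66.9 in E15 saline and 54.8, 75.9 and 67.5 in E15 MIA, and at 168, 166, 152 and 140.2 in P14 saline and 168 and 177 in P14 MIA. The embryonic stages overlapped for Itgb2, and all 6 P14 libraries lay above them. Itgb2 had log2 fold changes of 0.13 ± 0.13 and 0.10 ± 0.13 from E13 to E15 (adjusted p = 0.506 and 0.582) and rose by 0.93 ± 0.12 in saline (adjusted p = 2.1e-05) and 1.24 ± 0.14 in MIA (adjusted p = 1.1e-05) from E15 to P14.

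From E15 to P14 the genes went in 2 directions. In saline 4 of 8 were called higher against 24.2% of all genes (C1qa, C1qc, Itgam and Itgb2) and 3 of 8 lower against 23.9% (C3, C3ar1 and C5ar1). In MIA 5 of 8 were called higher, C1qb included, against 17.8%, and the same 3 lower against 20.3%. Groups that did not overlap numbered 5 of 8 genes between E13 and E15 in saline, where 39.7% of 8032 genes at 10 CPM or more did not overlap, and 4 of 8 in MIA, where 38.1% did not. Between E15 and P14 they numbered 7 of 8 in saline against 59.8% and 8 of 8 in MIA against 63.1%. C3 is under 10 CPM and so is not among the 8032, and without it the counts were 4 of 7, 4 of 7, 6 of 7 and 7 of 7.

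None of the 8 genes passed the test for MIA at any stage. No gene passed in edgeR among 12994 tested at E13, 14020 at E15 or 13640 at P14, where 101, 54 and 417 had an unadjusted p under 0.05 and DESeq2 called 2, 0 and 1, so 0% of genes were called and 0 of the complement genes tested. At E13 the log2 fold changes of MIA over saline ran from -0.11 for Itgb2 (95% interval -0.36 to 0.13) to 0.17 for C5ar1 (-0.10 to 0.43). C1qa had -0.01 (-0.29 to 0.26), C1qb, C1qc, C3 and C3ar1 0.03 each and Itgam -0.02. At E15 they ran from -0.27 for C3 (-1.31 to 0.78) to 0.08 for C3ar1 (-0.32 to 0.47), and the intervals were wider, as for Itgam at -0.08 (-0.76 to 0.60) and C5ar1 at 0.05 (-0.66 to 0.75). C1qa, C1qb and C1qc had -0.03, -0.02 and 0.03, and Itgb2 -0.14. The difference between the E15 and E13 effects of MIA was likewise called for 0 of 15121 genes by edgeR (89 at an unadjusted p under 0.05, 0 by DESeq2), and over the 8 genes it ran from -0.28 for C3 to 0.05 for C3ar1, with -0.01, -0.05 and 0.01 for C1qa, C1qb and C1qc, -0.12 for C5ar1, -0.06 for Itgam and -0.03 for Itgb2.

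At P14 the C1q genes leaned higher after MIA without passing the test. C1qb had a log2 fold change of 0.23 ± 0.11 (95% interval -0.03 to 0.48; edgeR adjusted p = 0.992), C1qc 0.21 (-0.07 to 0.48) and C1qa 0.15 (-0.04 to 0.35). Both MIA libraries lay above all 4 saline libraries for C1qa, C1qb and Itgb2, 3 of the 8 genes, while 10.7% of 8032 genes did not overlap at this stage and 2.63% and 1.59% did not at E13 and E15, none of them among the 8. Of the saline libraries, replicate 1 was the highest in all C1q genes. The markers of astrocytes and the oligodendrocyte lineage summed to 132 and 146 CPM in the P14 MIA libraries and 48.2 to 123 in P14 saline, and those of vascular cells to 31.8 and 34.0 against 35.7 to 41.7. With clusters led by other cell types left out C1qb had 0.23 and C1qa 0.16 (edgeR adjusted p = 0.938 each). The C1q sum was 2.79% ± 0.0840 (n = 2) in MIA and 2.47% ± 0.177 (n = 4) in saline (exact permutation p = 0.133, adjusted p = 0.341), where the smallest p that 2 libraries against 4 allow is 0.0667. With replicate number as a block, C1qb had a log2 fold change of 0.12, C1qc 0.09, C1qa 0.11, Itgb2 0.04 and C5ar1 0.04, none of which passed. Without the block Itgb2 had 0.16 (-0.08 to 0.41), C5ar1 0.12 (-0.13 to 0.37), C3ar1 0.09 (-0.18 to 0.35, and -0.14 without MIA replicate 2) and Itgam -0.01 (-0.18 to 0.17), and C3 had too few UMIs to be tested at P14. At E13 and E15 the C1q sum gave exact permutation p = 0.900 and p = 1.0, in a design of 3 against 3 that cannot go below 0.1.

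**Figure D3:**
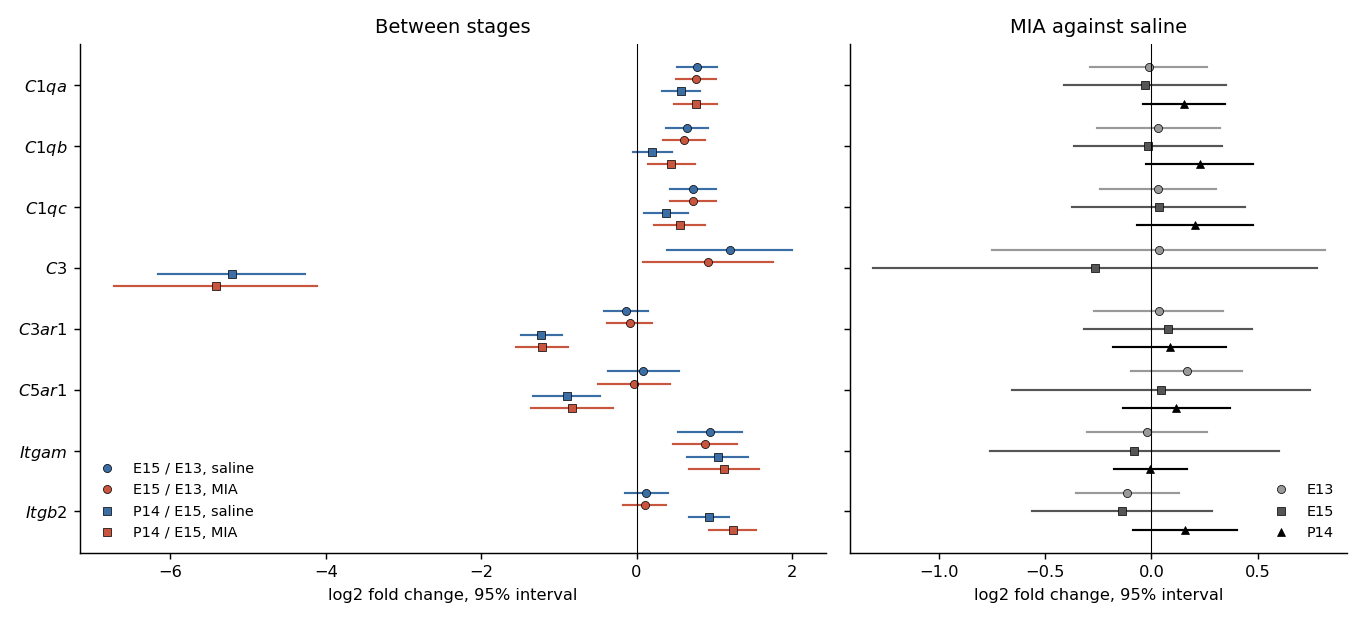
Log2 fold changes of the 8 genes with 95% intervals from edgeR, for MIA over saline at each stage and for each step between stages, where blue marks the steps within saline and red those within MIA. The MIA intervals cross 0 for every gene tested, and C3, C3ar1 and C5ar1 lie below 0 from E15 to P14 while C1qa, Itgam and Itgb2 lie above it.

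The genes were also counted cell by cell. With each cell thinned to 2000 UMIs and shallower cells left out (1501 saline cells at E13, 1639 at E15 and 1256 at P14), C1qa was found in 95.6% of saline cells at E13, 96.9% at E15 and 99.4% at P14, and in 94.99%, 92.9% and 99.5% of MIA cells. Unthinned, C1qa was found in 95.6%, 95.7% and 99.0% of saline cells, so nearly every cell already held it at E13 and no course is read from its share. Itgam was found in 24.8% ± 2.43, 41.1% ± 8.07 and 73.9% ± 0.810 of thinned cells (SD over 3, 3 and 4 libraries), and Itgb2 in 12.01%, 13.2% and 26.5%. C3ar1 was found in 29.3% ± 3.96, 26.7% ± 3.12 and 14.4% ± 0.354, and C5ar1 in 10.2%, 10.6% and 7.03%. Unthinned, Itgam was found in 59.1%, 73.2% and 90.7% of cells, C3ar1 in 64.0%, 61.3% and 29.8% and C5ar1 in 38.5%, 34.0% and 16.0%. Free RNA in the droplets sets a background. It was sought in cells of clusters where, of the lists other than microglia, that of neurons or neural progenitors had the most raised markers (neuron-led). In these cells, of 2218 to 4739 median UMIs at E13, 1380 to 3303 at E15 and 1609 to 2756 at P14, C1qa was found in 33.3% to 54.3% of cells of a library with at least 20 such cells at E13, 32.0% to 76.5% at E15 and 42.0% to 60.6% at P14. Itgam was found in 7.71% to 14.3%, 6.67% to 15.3% and 5.13% to 19.7% of them and C3ar1 in 4.44% to 9.52%, 5.97% to 12.1% and 0% to 2.56%. Itgb2 was found in 2.84% to 9.52%, 2.86% to 7.19% and 0% to 10.3% of them and C5ar1 in 3.60% to 5.56%, 2.08% to 4.87% and 0% to 3.03%. The lowest thinned share of Itgb2 in an E13 library was 9.92%, close to its share in neuron-led cells. In E13 MIA replicate 1, with 13 such cells, C3ar1 was found in 23.1% and Itgam in 15.4%, against 31.9% and 20.9% of all its thinned cells. Neuron-led clusters of 453 and 332 cells held 11 and 12 of the 12 microglia markers in many of their cells. The top genes of the cluster of 332 were Igfbp7, Col4a1 and Ramp2. Those of a P14 cluster of 188, among 386 neuron-led cells at P14, were Mt3, Aldoc and Slc1a2. These genes are not in the neuron or neural progenitor lists, and both clusters went without a name. The shares in neuron-led cells thus need not come from free RNA alone. C3 was found in 0.258%, 0.627% and 0.0156% of thinned saline cells, about the level of single UMIs, and in 0% to 0.342%, 0% to 0.678% and 0% of neuron-led cells, which overlaps the embryonic shares, so no course is read from that share.

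Levels were also read by clusters of cells, built without the 8 genes. These are means ± SD over libraries with at least 20 cells of a cluster class, given as a description without a test, and doublets and the lesser copies of shared barcodes are left out of them. The embryonic microglia-like class took in clusters led by DNA replication genes such as Dtl, Mcm4 and Hells and is not compared across stages. At E15 C3ar1 stood at 164 ± 17.0 CPM in microglia-like cells (n = 6), 341 ± 55.1 in cells high in Spp1 and related genes (n = 6), 352 ± 37.8 in border-associated macrophage-like cells (n = 6) and 399 ± 62.1 in cells high in Hmox1, a heme-degrading enzyme (n = 5). The lowest library of each of the latter classes, at 235, 288 and 304 CPM, lay above the highest microglia-like library at 179. Interferon-responsive cells stood at 296 ± 50.9 CPM (n = 5), with their lowest library, at 218, also above 179. C5ar1 at E15 was also higher in Hmox1-high cells, at 220.3 ± 110.1 CPM against 70.0 ± 21.6 in microglia-like cells, whereas Itgam was lower there, at 155 ± 18.2 against 385 ± 68.3.

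At P14 C3ar1 and C5ar1 were highest in cells high in the chemokine genes Ccl3 and Ccl4. C3ar1 stood at 312 ± 44.4 CPM in these cells and 71.1 ± 9.29 in microglia-like cells (n = 6 each), and C5ar1 at 93.4 ± 20.8 and 36.4 ± 2.51. The chemokine-high cells were 5.58% of the P14 cells so kept and held 24.0% of C3ar1 UMIs and 15.8% of C5ar1 UMIs. C3 at E15 stood at 8.59 ± 6.68 CPM in interferon-responsive cells (n = 5) and 2.97 ± 0.786 in microglia-like cells (n = 6), with overlapping libraries.

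**Figure D4:**
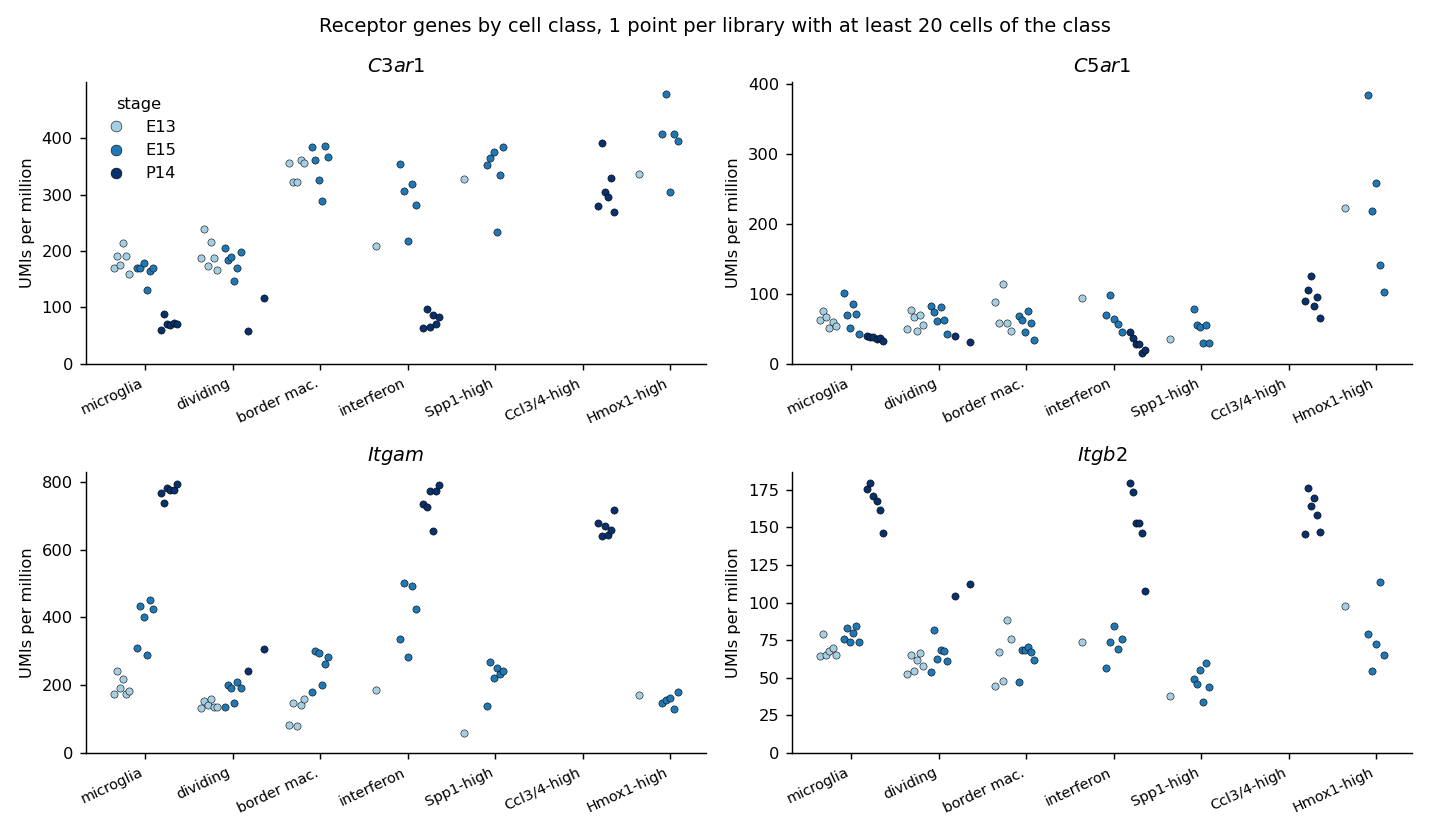
Levels of the complement receptor genes by cluster class and stage, in CPM, 1 point per library with at least 20 cells of the class, shaded by stage. C3ar1 is highest in Hmox1-high, border-associated macrophage-like and Spp1-high cells at E15 and in Ccl3- and Ccl4-high cells at P14.

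Over the 18 libraries, the genes whose log2 levels ran most like each complement gene were sought among 8025 genes at 10 CPM or more. The libraries fall into 3 stages, so these coefficients mostly follow the order of stages, and they are a description. For the C1q sum they were Ddrgk1, Cd37 and Tcn2 (r = 0.99 each), for C3ar1 Apoe, Abcg3 and Mfsd1 (0.98, 0.98 and 0.97), and for C5ar1 Slc25a39, Npl and Prdx3 (0.94, 0.93 and 0.93). For Itgam they were Il6ra, Tbxas1 and P2rx7 (0.99 each), for Itgb2 Olfml2b, Siglece and Tmem173 (0.98 each), and for C3 Fcgr4, Epb41l3 and Rpl34 (0.95, 0.95 and 0.94). Taken as deviations from the 6 group means over the same libraries, r ran over all pairs from -0.45 for C5ar1 and Itgam to 0.89 for C1qb and C1qc. C1qa had 0.76 with C1qb and 0.47 with C1qc, and Itgam had 0.61 with Itgb2, 0.85 with C3, and 0.54, 0.04 and -0.14 with C1qa, C1qb and C1qc.

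Other complement genes were followed as 4 lists. From E15 to P14, 4 of 7 tested genes of the classical and lectin pathway were called lower in saline, where 23.9% of all genes were, with a list median of -1.88 against 0.03 over all genes. In MIA 4 of 7 were called lower, against 20.3% of all genes, with a median of -3.02 against -0.03. In saline they were C2, a protease of the classical and lectin pathways, at -3.37 ± 0.41 in saline, the lectins Fcna at -3.39 ± 0.49 and Colec12 at -2.82 ± 0.72, and the protease Masp1 at -1.88 ± 0.50. Of the alternative pathway and terminal components 3 were tested, of which Cfb, the protease of the C3 convertase, was called lower at -4.06 ± 0.61 in saline and -3.38 ± 0.78 in MIA. Of 15 regulators 4 were called higher and 5 lower in saline, against 24.2% and 23.9% of all genes, among them Csmd3 at 5.98 ± 0.55, Clu at 4.07 ± 0.78, the C1 inhibitor Serping1 at -3.68 ± 1.00 and Vtn at -3.32 ± 1.01. Of the 9 other receptors and C1q binding partners, 4 were called higher and 2 lower in saline, against the same shares, with C5ar2, the other C5a receptor, at 1.59 ± 0.16, opposite to C5ar1, Itgax at -2.15 ± 0.28, Cd93 at -3.32 ± 0.85 and Sirpa at 0.75 ± 0.15. In MIA libraries 4 of 15 regulators were called higher and 4 lower (median -0.27), and 3 of 9 other receptors higher and 2 lower (median -0.03), against 17.8% and 20.3% of all genes.

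From E13 to E15 20.6% of all genes were called in saline and 30.3% in MIA. In saline the genes called higher included Csmd3 at 2.43 and Cd46 at 1.29 among the regulators (list median 1.00 against 0.04 over all genes) and Cd47 at 0.51 among the receptors and partners (0.06), and the list medians were -0.13 for the classical and lectin genes and -0.42 for the alternative and terminal ones. In MIA the regulators Clu at 3.22, Sez6l2 at 2.57 and Csmd3 at 2.44 were higher (1.72 against 0.06), Cfb was lower at -1.76, Cd47 and C5ar2 were higher at 0.50 and 0.51, and the chaperone Calr was lower at -0.57. Csmd3, Clu and Sez6l2 are known from neurons or astrocytes. From E15 to P14 in saline Csmd3 was called higher, where neuron markers fell and those of microglia and the astrocyte and oligodendrocyte lineages rose. The 10 neuron markers summed to between 78.9 and 108 CPM in E13 saline, 320 and 454 in E15 saline and 22.8 and 48.8 in P14 saline, and to between 39.4 and 186, 145 and 1899, and 23.5 and 46.5 in MIA. The 8 markers of astrocytes and the oligodendrocyte lineage summed to between 11.6 and 12.4 CPM, 13.8 and 16.5, and 48.2 and 123 in saline at E13, E15 and P14, and to between 9.84 and 13.5, 16.3 and 39.6, and 132 and 146 in MIA. Their part in these values was not tested.

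In the cortical nuclei Csf1r itself was checked first. It had 23 and 11 UMIs in the wild-type saline libraries, 23 and 1 in those labelled wild-type MIA, 4 and 10 in those labelled Csf1r-null saline, and 2 and 1 in Csf1r-null MIA. By Csf1r, replicate 2 of the label wild-type MIA stood with the null libraries. Replicate 2 of the label Csf1r-null saline stood with the wild-type ones. The 12 summed microglia markers split less clearly. They stood at 33.2 to 42.9 CPM in wild-type saline and 23.6 to 36.2 in wild-type MIA. In Csf1r-null saline they stood at 23.3 to 27.7 and in Csf1r-null MIA at 17.6 to 25.5. Nuclei with at least 2 of these markers were 0.150% and 0.151% in Csf1r-null saline replicates 1 and 2, and 0.298% and 0.236% in wild-type saline. Of 9 such nuclei in each Csf1r-null saline library, 9 and 2 held exactly 2 markers. The C1q genes followed the split in Csf1r. C1qa, C1qb and C1qc had 59, 71 and 57 UMIs in wild-type saline replicate 1, 21, 37 and 20 in replicate 2, and 23, 39 and 14 in wild-type MIA replicate 1, whereas each had 0 in replicate 2 of that label. In Csf1r-null saline replicate 1 they had 0, 0 and 1 UMIs, in replicate 2 of that label they had 19, 25 and 14, and both Csf1r-null MIA libraries had 0. A floor of 3 UMIs, set for a count of 0, comes to 0.202 and 0.269 CPM in the Csf1r-null MIA libraries and 0.269 in replicate 2 of the label wild-type MIA. The C1q sums were 14.4, 6.47, 4.32 and 5.86 CPM in the 4 libraries with more than 1 C1q UMI. Those 2 libraries were singled out by the same microglial genes, so a comparison without them is circular for C1q.

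As labelled, no gene of 14509 tested passed in edgeR between the genotypes, with 440 at an unadjusted p under 0.05 and 0 by DESeq2, so 0% were called. Of the 8 genes, 4 had enough UMIs to be tested. In Csf1r-null against wild-type nuclei C1qa had a log2 fold change of -3.97 (95% interval -8.23 to 0.30), C1qb -4.35 (-8.74 to 0.03) and C1qc -3.79 (-7.46 to -0.13), with edgeR adjusted p = 1.000 each. Without wild-type MIA replicate 1 they were -0.87, -0.90 and -1.04. With no filter on low counts the same genes were called, with adjusted p = 0.024, 0.0072 and 0.034. Without both contradicting libraries, left out after the data were seen, they were -7.80, -8.41 and -5.88, again with adjusted p = 1.000. Fitted folds against libraries at 0 depend on the fit's prior count and are no bound. C3ar1 had 0.47 (-0.20 to 1.14) between genotypes. After MIA in wild-type libraries C1qa had -2.18 (-5.68 to 1.31), C1qb -1.91 (-5.45 to 1.62), C1qc -2.80 (-5.87 to 0.27) and C3ar1 -0.30 (-1.27 to 0.66), with 0 of 14509 genes called by edgeR, 802 at an unadjusted p under 0.05 and 4 by DESeq2. These values rest on replicate 2 of the MIA label, which had no C1q UMI. Without it C1qa, C1qb and C1qc had -1.33, -1.02 and -1.98, and without MIA replicate 1, which leaves that library alone, -8.27, -8.73 and -8.22. In Csf1r-null libraries 0 genes were called by edgeR (35 at an unadjusted p under 0.05, 1 by DESeq2), and C3ar1 had -0.18 (-1.11 to 0.75), while C1qa, C1qb and C1qc had -6.61, -7.02 and -6.23 with both MIA libraries at 0. For the difference of the MIA effects between genotypes 0 genes were called (242 and 2), and C3ar1 had 0.12 (-1.21 to 1.46) and C1qa, C1qb and C1qc -4.42, -5.10 and -3.43, with intervals that crossed 0.

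C3ar1 did not follow the C1q genes in the nuclei. It had 11 to 27 UMIs in all 8 libraries, or 0.912 to 1.85 CPM, the Csf1r-null MIA libraries included at 1.55 and 1.26. Of those C3ar1 UMIs 0 to 2 a library lay in nuclei with at least 2 microglia markers, whereas 145 of 187 C1q UMIs did in wild-type saline replicate 1, 56 of 78 in replicate 2, 55 of 76 in replicate 1 of wild-type MIA and 35 of 58 in replicate 2 of the label Csf1r-null saline. C3 had 0 to 4 UMIs a library, C5ar1 and Itgam 0 to 2 and Itgb2 0 to 1, too few to compare.

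**Figure D5:**
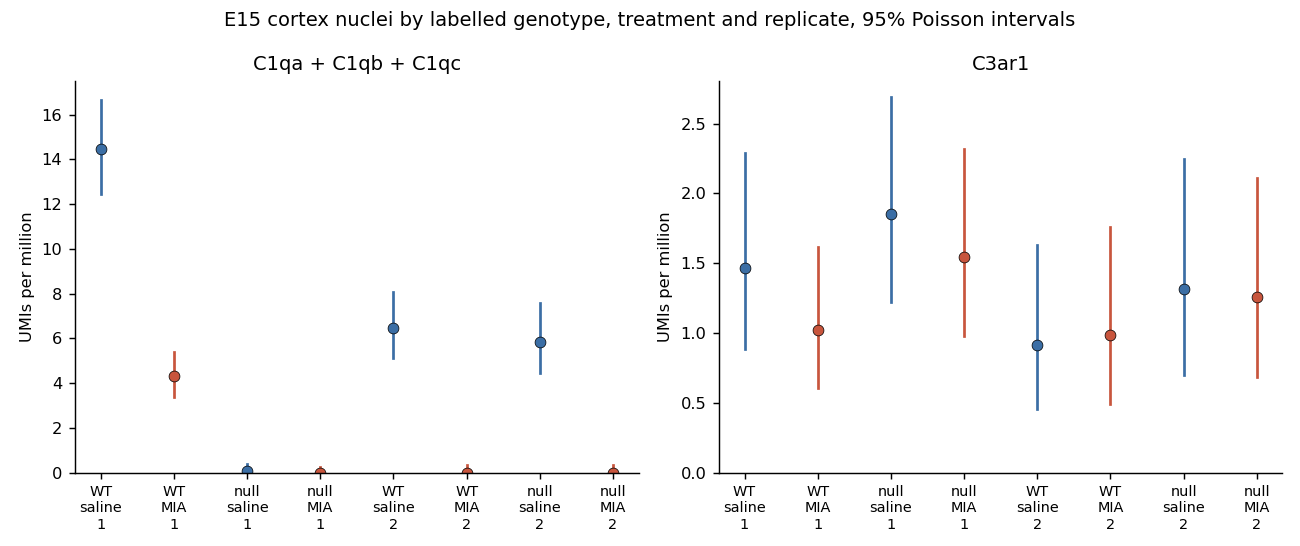
Level in CPM of the C1q genes added together (left) and of C3ar1 (right) in the 8 libraries of cortical nuclei. Lines are 95% Poisson intervals, with blue for saline and red for MIA, by labelled genotype, treatment and replicate. The C1q sum is at or near 0 in replicate 2 of the label wild-type MIA and in 3 of the 4 libraries labelled Csf1r-null. C3ar1 is present in all 8.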

How the data were processed

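The study measured gene expression by droplet sequencing (10x Genomics 3′ v3.1). The authors deposited tables of UMI counts per gene and barcode, not normalized, from reads aligned to mm10. Headers name Cell Ranger 3.1.0 for the 18 microglia libraries and 4 nuclei libraries (replicate 1) and 6.0.1 for the other 4 (replicate 2), which list called barcodes only, so the nuclei replicate number also stands for software and barcode filter. Sequencing batch is not given in the labels.

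Kept were microglia of 500 genes or more whose mitochondrial UMIs did not exceed 20%, and nuclei of 500 UMIs and 200 genes or more, and counts were summed per library. Libraries were the replicates, although the injections were given to dams. By the paper, embryonic microglia libraries were pools of embryos. The nuclei came from fewer dams than libraries, with wild-type littermates as controls. No term for the dam was fitted, so libraries may not be independent. Comparisons between treatments of microglia were fitted within a stage, those between stages over all 18 libraries and those of nuclei over all 8, with edgeR 4.0.16 (quasi-likelihood, TMM, filterByExpr by group, Benjamini-Hochberg over all genes tested, threshold 0.05) in R 4.3.3. DESeq2 1.42.0 was an alternative. Scripts were tested on simulated data. For C1q sums and shares, exact permutation tests, two-sided, were run in scipy 1.17.1 over 20 comparisons. Clusters (scanpy 1.11.5, leidenalg 0.10.2, 2000 variable genes, 30 components, 20 neighbours, resolution 0.8) were built without the complement genes. They took a name from marker lists, unless another list led. Doublets (0.8% per 1000 cells) were kept in the summed counts, with their removal as an alternative, and left out of cluster levels.

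The complement genes and the lists were chosen with earlier results of these data known. All 8 genes are named in every comparison that tested them, with at most 4 called genes of each other list, those with the largest changes, apart from an item not reported here. Same-numbered libraries deviated together in every pair at E15 (r from 0.19 to 0.35, against -0.27 to -0.04 in other pairs) and in nuclei (0.50 to 0.68). With 2 libraries a group, the other pairs of nuclei mirror these values. At E13 (-0.02 to 0.36) and P14 (-0.06 to 0.26) the pairs were of mixed sign. A block on replicate number was therefore an alternative. Likeness was Pearson's r of log2(CPM + 1).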

Additional observations from a re-analysis of the deposited data

Results flagged for a closer look

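Nearly empty droplets, those under 100 UMIs in the replicate 1 nuclei libraries, are outside the comparisons of the report. In wild-type MIA replicate 1 these droplets held C1qa at 168, C1qb at 154 and C1qc at 111 CPM, from 538, 493 and 356 UMIs, with 95% counting intervals of 154 to 182, 140.3 to 168 and 99.7 to 123. The same droplets of the Csf1r-null saline library held 3.02, 4.11 and 2.47 CPM, those of the Csf1r-null MIA library 2.40, 4.196 and 1.80, and those of the wild-type saline library 5.10, 8.61 and 5.10. Itgam stood at 11.5 CPM (8.11 to 15.9, from 37 UMIs) in wild-type MIA replicate 1 and at 0, 1 and 2 UMIs in the other 3. The microglial genes Csf1r and Cx3cr1 had 174 and 222 UMIs in the same droplets of wild-type MIA replicate 1, against 24 and 9 in wild-type saline, 4 and 5 in Csf1r-null saline and 6 and 1 in Csf1r-null MIA. In the kept nuclei of wild-type MIA replicate 1 C1qa, C1qb and C1qc stood at 1.31, 2.22 and 0.795 CPM, below the level in its nearly empty droplets. They were also lower in kept nuclei than in such droplets in the other 3 libraries. Wild-type saline nuclei held 4.56, 5.48 and 4.40 CPM, and the Csf1r-null nuclei at most 0.0686. In the P14 saline group, the only group of microglia libraries with at least 4 members, no library stood apart in any of the 8 genes, the C1q sum or the shares by Dixon's test.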

How the results depend on the processing

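No call of a complement gene turned its direction under any alternative, and 377 of 398 alternatives to a called value kept the call. Of 967 alternatives to values that were not called, 117 changed the sign and 7 were called. Counts of genes called for MIA or genotype moved from 0. At E13 they were 2 with DESeq2, at P14 1 with DESeq2. In nuclei they were 30 genes, 3 of them C1q genes, without the filter on low counts for genotype, 4 with DESeq2 and 59 without the filter for MIA in wild type, 1 with DESeq2, 3 without the filter and 2 without both contradicting libraries for MIA in Csf1r-null, and 2 with DESeq2 and 4 without the filter for the difference of the MIA effects. The cause was not tested.

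Leaving out 1 library at a time gave 0 to 4 genes at E13 (4 without MIA replicate 3) and 0 to 2 for MIA in wild-type nuclei (2 without saline replicate 2), and 0 at E15 and P14, for both MIA interactions, for genotype and for MIA in Csf1r-null. From E13 to E15 it gave 1528 to 4314 genes in saline (3110 with all libraries), with 2002, 1564 and 1730 without E13 saline replicates 1, 2 and 3 and 1528 and 1600 without E15 saline replicates 2 and 3, and 4 to 5 complement genes, and 3085 to 4754 and 4 to 5 in MIA. From E15 to P14 it gave 5683 to 7331 and 6 to 7 in saline, and 3120 to 6468 and 5 to 8 in MIA, with 3677 and 3120 genes without P14 MIA replicates 1 and 2 and 5 complement genes without replicate 2. All 228 alternatives for the C1q sum and shares kept their side of the threshold.

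With replicate number as a block, 1 gene was called at E13, 0 at E15 and P14, 3354 and 4264 from E13 to E15 (saline, MIA), 7326 and 6021 from E15 to P14, 0 for the embryonic interaction, genotype and MIA within each genotype, and 2 for the difference of MIA effects between genotypes. The block changed no call of a complement gene. At P14 the number 3 is carried by a female and a male library. C3 at P14 and C3, C5ar1, Itgam and Itgb2 in nuclei are limited by depth. The lesser copies of shared barcodes, library totals, the stage and P14 blocks and the removal of both nuclei libraries were alternatives chosen after seeing the data.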
